A study of Mus musculus with 4 samples.

Results

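The insulin, IGF1 and mTOR pathway core was described here by 10 genes, which are Igf1, Igf1r, Insr, Irs1, Irs2, Akt1, Akt2, Mtor, Rptor and Deptor. They were matched by gene symbol, a rule that uses no measured value although the set was proposed with earlier results of these data known, and all 10 were among the 13825 genes of the count table. RNA came from the tibialis anterior (TA), a fast muscle of the lower leg, of adult male WT mice (bought as C57BL/6J) and of mice lacking Fgf21 in the whole body (FGF21KO), whose strain background is not given in the sources used here. The sciatic nerve of the left leg had been cut by removing a piece of it, and the right leg kept its nerve as the control. Muscles were taken on day 14. WT muscle gave the groups WS (sham) and WD (denervated), and FGF21KO muscle the groups KS (sham) and KD (denervated). Each of these 4 groups was 1 library made from 4 pooled muscles, so the spread between animals was not measured. The study's methods say that the control leg of such mice had the same operation without the nerve cut, whereas the series description says only that it remained innervated. If both legs of a mouse were used, sham and denervated pools share animals.

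In muscle, IGF1 and insulin bind the receptor kinases IGF1R and INSR, which phosphorylate the adaptor proteins IRS1 and IRS2. These recruit PI3-kinase, whose lipid product brings the kinases AKT1 and AKT2 to the membrane. AKT promotes glucose uptake, holds back FoxO transcription factors and relieves the brake on mTOR complex 1 (mTORC1), which joins the kinase mTOR to its scaffold RAPTOR (Rptor) and drives protein synthesis. DEPTOR binds mTOR and restrains its activity.

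Denervation moved members of the core in both directions. The adaptors Irs1 and Irs2 were lower in denervated than in sham muscle of both genotypes, by 1.80-fold and 1.90-fold in WT and by 1.79-fold and 1.69-fold in FGF21KO. The members Akt1, Akt2, Mtor, Rptor and Deptor were higher, led by Akt2 (1.70-fold in WT, 1.64-fold in FGF21KO) and Mtor (1.61-fold and 1.90-fold). Between genotypes the members lay closer together, with log2 ratios between −0.29 and 0.12.

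Total counts ran from 25249879 (WS) to 34141303 (KS), so the least-counted member still had 503 reads. Levels are given as CPM, reads scaled to a common library size by TMM, and 3 counts corresponded to between 0.0919 and 0.129 CPM. Transcripts encoded by mitochondrial DNA took 26.97% of counts in WS and 30.4% in KS, against 19.4% in WD and 20.6% in KD. The nerve cut was checked with Ncam1, a cell adhesion molecule that muscle fibres make after losing their nerve, which had 234 reads in WS against 3319 in WD, and 235 in KS against 3298 in KD. No value of Fgf21 was used here, and the genotype labels therefore have no check of their own. The fibre genes Myh1, Mylpf and Des summed to 37611 CPM in WS and 26782 CPM in WD, 35536 CPM in KS and 28379 CPM in KD. Myh1 and Mylpf were lower in the denervated library of each genotype. Des went the other way, with 3782 CPM in WS against 5859 in WD, and 3851 in KS against 5288 in KD. The other 7 genes of the myofibre list were not analysed here.

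Levels of different members were compared per kilobase of their longest protein-coding transcript. In WS the order was Akt2 (73.2 CPM per kb), Akt1 (31.3), Insr (14.3), Deptor (11.9), Irs1 (10.4), Rptor (8.74), Mtor (8.45), Irs2 (5.42), Igf1 (3.31) and Igf1r (2.27). The KS library had the same order, from Akt2 at 73.9 to Igf1r at 1.85 CPM per kb. Rptor and Mtor were the only neighbours in the sham orders whose counting intervals overlapped. In WD the order became Akt2 (124.2 CPM per kb), Akt1 (40.9), Deptor (16.4), Mtor (13.6), Insr (12.5), Rptor (10.01), Irs1 (5.75), Irs2 (2.85), Igf1 (2.79) and Igf1r (2.09). KD again had the order of its WT counterpart, from 121.5 CPM per kb for Akt2 to 1.96 for Igf1r. In the denervated orders, the intervals of Irs2 and Igf1 overlapped in WD and those of Igf1 and Igf1r in KD. Mtor thus stood below Irs1 per kilobase in both sham libraries and above it in both denervated ones.

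**Figure D1:**
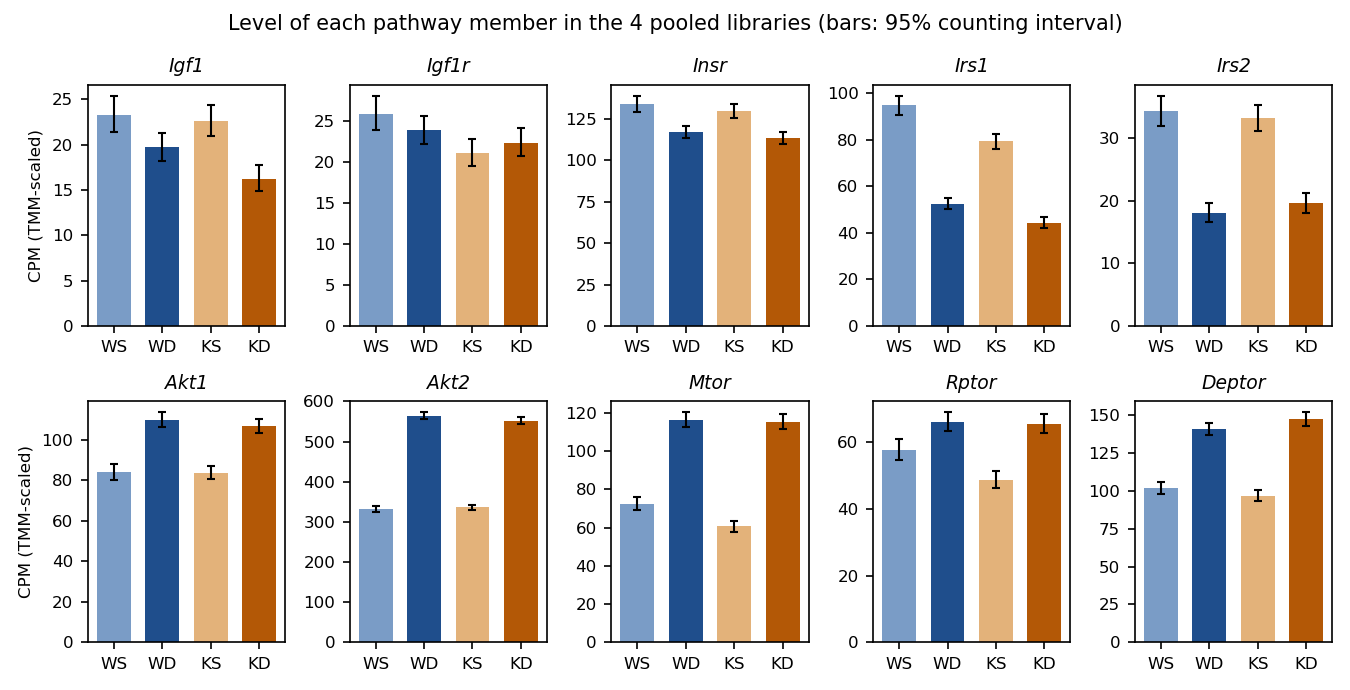
CPM of the 10 members in the 4 libraries, with 1 panel per member and a separate linear vertical axis in each. Each pooled library is 1 bar, with error bars for 95% intervals of counting error. By the axis values, Akt2 has the highest CPM in all 4 libraries. Irs1 and Irs2 lie lower and Akt2 and Mtor higher in both denervated libraries than in both sham libraries.

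Pairs of libraries were compared as log2 ratios with 95% intervals that cover counting error only, and these comparisons have no replicate check. Across both genotypes, denervation was tested by the edgeR quasi-likelihood test with genotype as a covariate, 2 denervated against 2 sham libraries, adjusted over 13084 genes. By this test 5 members rose (Akt1, Akt2, Mtor, Rptor and Deptor), 4 fell (Igf1, Insr, Irs1 and Irs2) and Igf1r did not pass. Of all genes tested, 26.6% rose and 27% fell by the same rule, so a call by itself was common. No member was 2-fold apart in WD vs WS, where 7.18% of all genes were at least 2-fold higher and 7.61% at least 2-fold lower. None was 2-fold apart in KD vs KS either, where the shares were 7.51% and 6.1%. Both ratios had the same direction in 9 of the 10 members and in 82.8% of all genes. The median log2 ratio of the members was 0.04 in WT and 0.22 in FGF21KO, beside 0.01 and 0.01 for all genes. Scaling by total counts alone, under which the median log2 ratio of all genes was 0.29 in WT and 0.36 in FGF21KO, moved all 10 members up, with edgeR log2 fold changes of −0.52 for Irs1 and Irs2, 0.69 for Akt1, 0.63 for Rptor and 0.86 for Deptor. Since each library is bulk muscle, fewer cells of a type and less RNA per cell cannot be told apart.

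Igf1, the growth factor that muscle makes for local use and that the liver supplies to blood, had 23.3 CPM in WS against 19.7 in WD, and 22.6 in KS against 16.3 in KD. Both denervated values lay below both sham values. The log2 ratio was −0.24 (95% interval −0.41 to −0.08) in WT and −0.47 (−0.64 to −0.31) in FGF21KO, and the edgeR log2 fold change was −0.36 ± 0.11 (SE; adjusted p = 0.00662). That call was lost without WS (adjusted p = 0.0550), without KD (0.273), with DESeq2 (0.0906) and under scaling by total counts alone (0.777), where the WT ratio turned to 0.04. Macrophages and fibroblast-like cells of muscle are also known sources of Igf1. Of 8 macrophage markers, 7 rose with denervation by edgeR, and their summed level was 18.2 CPM in WS and 45.4 in WD, 18.1 in KS and 43.4 in KD. Of 8 fibroblast and fibro-adipogenic markers, 6 fell, and their sum was 847.2 CPM in WS against 567.4 in WD, and 867.0 in KS against 568.3 in KD. Their part in the Igf1 values was not tested.

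The receptors changed little. Insr, the insulin receptor, had 134.0 CPM in WS and 117.1 in WD, and 129.7 in KS and 113.5 in KD. The ratio was −0.19 in both genotypes (−0.26 to −0.13 in each), with an edgeR log2 fold change of −0.19 ± 0.072 (adjusted p = 0.0240). Without WS, WD or KD the adjusted p was 0.0729, 0.131 and 0.244, and with DESeq2 it was 0.0975. Scaling by total counts turned the fold change to 0.13 (adjusted p = 0.111). Igf1r, the receptor with the higher affinity for IGF1, had 25.9 CPM in WS against 23.9 in WD, and 21.1 in KS against 22.4 in KD, and these values of sham and denervated libraries overlapped. Its ratio was −0.12 (−0.27 to 0.04) in WT and 0.08 (−0.08 to 0.24) in FGF21KO, and the edgeR log2 fold change was −0.02 ± 0.10 (adjusted p = 0.897). Under scaling by total counts it was 0.30 (adjusted p = 0.0319). Within a library, reads of Insr outnumbered those of Igf1r by 5.17-fold in WS and 4.90-fold in WD, and by 6.14-fold in KS and 5.07-fold in KD.

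Irs1 and Irs2 are the adaptors through which insulin and IGF1 receptors reach PI3-kinase. Irs1 had 2201 reads in WS against 1717 in WD, and 2354 in KS against 1372 in KD, or 94.7, 52.6, 79.3 and 44.4 CPM. Both denervated libraries were well below both sham libraries. The log2 ratio was −0.85 (−0.94 to −0.76) in WT and −0.84 (−0.93 to −0.74) in FGF21KO, larger in size than the ratios of 79.6% and 80.4% of all genes. By edgeR the log2 fold change was −0.84 ± 0.08 (adjusted p = 1.94e-10). Irs2 had 796 reads in WS against 589 in WD, and 986 in KS against 607 in KD, or 34.3, 18.0, 33.2 and 19.6 CPM, again with no overlap of sham and denervated values. Its ratio was −0.92 (−1.08 to −0.77) in WT and −0.76 (−0.91 to −0.61) in FGF21KO, and the edgeR log2 fold change was −0.84 ± 0.10 (adjusted p = 3.38e-08). Reads of Irs1 outnumbered those of Irs2 by 2.77-fold in WS and 2.92-fold in WD, and by 2.39-fold in KS and 2.26-fold in KD. The 6 endothelial markers all fell with denervation by edgeR, from a summed 456.3 CPM in WS to 209.3 in WD and from 369.2 in KS to 198.3 in KD. Summed fibroblast and fibro-adipogenic markers were lower too (847.2 to 567.4 CPM in WT, 867.0 to 568.3 in FGF21KO). So were Schwann cell markers (62.8 to 23.0 and 60.4 to 23.5), while macrophage markers were higher (18.2 to 45.4 and 18.1 to 43.4). Their part in the Irs1 and Irs2 values was not tested.

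The promoters of Irs1 and Irs2, whose levels fell together, and of Mtor, which rose, are shown here from 250 bases before to 50 bases after the RefSeq start of transcription (GRCm38.p6). Windows were found for 8 of the 10 members (all but Insr and Deptor). Capitals mark every match, on either strand, of the GC box GGGCGG and of the E-box CANNTG, which includes the palindrome CACGTG. The Irs1 window is chr1:82291390-82291689 (minus strand), the Irs2 window chr8:11008880-11009179 (minus strand) and the Mtor window chr4:148448332-148448631 (plus strand).
Irs1: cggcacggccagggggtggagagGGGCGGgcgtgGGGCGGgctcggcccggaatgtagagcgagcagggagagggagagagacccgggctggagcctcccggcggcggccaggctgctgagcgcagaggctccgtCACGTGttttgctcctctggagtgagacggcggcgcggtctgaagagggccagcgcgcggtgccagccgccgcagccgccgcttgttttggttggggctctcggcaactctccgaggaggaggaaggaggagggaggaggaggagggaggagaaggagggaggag
Irs2: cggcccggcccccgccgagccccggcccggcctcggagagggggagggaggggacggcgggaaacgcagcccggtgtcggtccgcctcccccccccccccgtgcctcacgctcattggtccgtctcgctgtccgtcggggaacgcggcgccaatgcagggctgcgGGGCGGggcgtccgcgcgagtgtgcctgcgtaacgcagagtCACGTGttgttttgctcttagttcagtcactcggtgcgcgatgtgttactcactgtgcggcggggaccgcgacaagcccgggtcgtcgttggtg
Mtor: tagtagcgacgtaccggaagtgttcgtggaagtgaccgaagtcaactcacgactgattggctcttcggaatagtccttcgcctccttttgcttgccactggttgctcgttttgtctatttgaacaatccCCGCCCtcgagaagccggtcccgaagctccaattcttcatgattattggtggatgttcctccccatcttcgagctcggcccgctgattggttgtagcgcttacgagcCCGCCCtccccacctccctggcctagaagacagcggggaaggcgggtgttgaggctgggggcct

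The Irs1 and Irs2 windows were 71.3% and 72.0% G and C, above 92.2% and 93.1% of the 32851 windows of the table, while that of Mtor was 56.7%. Each of the Irs1 and Irs2 windows held 1 E-box, and in both it was CACGTG, a sequence searched for after these windows had been read and present in 7.15% of all windows. Mtor held no E-box, a motif present in 72.3% of windows. GC boxes numbered 2 for Irs1, 1 for Irs2 and 2 for Mtor, and 35.7% of windows had one. The CCAAT box, also chosen after the sequences were read and present in 37.4% of windows, had 2 matches in Irs2 and 4 in Mtor. None of the 3 windows held the letters TATAAA, the FoxO motif GTAAACA, the RUNX motif TGTGGT or the CRE TGACGTCA, which 13.6%, 3.65%, 16.8% and 1.79% of windows held. These matches are a description of letters only. On GRCm38, GENCODE places Irs1 at chr1:82233101-82291416 and Irs2 at chr8:10984681-11008458, both on the minus strand, and Mtor at chr4:148448611-148557683 on the plus strand. The Irs2 window lies wholly upstream of that GENCODE span, so RefSeq and GENCODE place the start of Irs2 differently. The Irs1 and Mtor windows include the GENCODE starts.

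Of the kinases below PI3-kinase, Akt2, the isoform that muscle uses for insulin-stimulated glucose uptake, had 7728 reads in WS against 18417 in WD, and 9978 in KS against 17082 in KD. In CPM these were 332.7, 564.2, 336.0 and 552.2, with sham and denervated libraries far apart. The log2 ratio was 0.76 (0.72 to 0.80) in WT and 0.72 (0.68 to 0.75) in FGF21KO, and the edgeR log2 fold change was 0.74 ± 0.071 (adjusted p = 5.52e-10). Akt1, the isoform tied to growth, had 84.1 CPM in WS against 109.9 in WD, and 83.9 in KS against 106.8 in KD. Its ratio was 0.39 (0.31 to 0.47) in WT and 0.35 (0.27 to 0.42) in FGF21KO, with an edgeR log2 fold change of 0.37 ± 0.073 (adjusted p = 0.000105). Because a ratio of 2 genes within a library needs no scaling, reads of Akt2 and Akt1 were also divided directly. There were 3.95 (3.76 to 4.16) reads of Akt2 per read of Akt1 in WS and 4.01 (3.83 to 4.19) in KS, against 5.13 (4.95 to 5.32) in WD and 5.17 (4.98 to 5.37) in KD. The sham intervals lay below the denervated ones in both genotypes, so Akt2 and Akt1 moved unequally.

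Mtor, the kinase of both mTOR complexes, had 1682 reads in WS against 3798 in WD, and 1801 in KS against 3566 in KD, or 72.4, 116.3, 60.6 and 115.3 CPM. The denervated libraries were nearly level, and the sham libraries were below them and apart from each other. The ratio was 0.68 (0.60 to 0.77) in WT and 0.93 (0.84 to 1.01) in FGF21KO, and the edgeR log2 fold change was 0.81 ± 0.078 (adjusted p = 5.89e-10). Rptor, whose product presents substrates to mTORC1, had 57.6 CPM in WS against 66.0 in WD, and 48.7 in KS against 65.5 in KD. Its ratio was 0.20 (0.10 to 0.30) in WT and 0.43 (0.33 to 0.53) in FGF21KO, with an edgeR log2 fold change of 0.31 ± 0.081 (adjusted p = 0.00181), a call lost without KS (0.19, adjusted p = 0.0700). Deptor, the mTOR-binding inhibitor, had 101.7 CPM in WS against 140.5 in WD, and 96.8 in KS against 147.2 in KD. Its ratio was 0.47 (0.39 to 0.54) in WT and 0.60 (0.54 to 0.67) in FGF21KO, and the edgeR log2 fold change was 0.54 ± 0.073 (adjusted p = 3.86e-07). The gene for the kinase and the gene for its inhibitor therefore rose together.

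Within each library, reads of Rptor per read of Mtor were 0.796 (0.740 to 0.856) in WS and 0.803 (0.749 to 0.861) in KS, and fell to 0.567 (0.538 to 0.598) in WD and 0.568 (0.538 to 0.6004) in KD. Reads of Deptor per read of Mtor were 1.405 (1.32 to 1.496) in WS against 1.21 (1.16 to 1.26) in WD, and 1.60 (1.505 to 1.69) in KS against 1.28 (1.22 to 1.33) in KD. Both ratios were lower in the denervated library of each genotype, so Mtor gained on its partners in the read counts. Between genotypes at the same surgery, the intervals of Rptor to Mtor overlapped. Those of Deptor to Mtor overlapped in denervated muscle but not in sham muscle, where KS lay above WS.

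**Figure D2:**
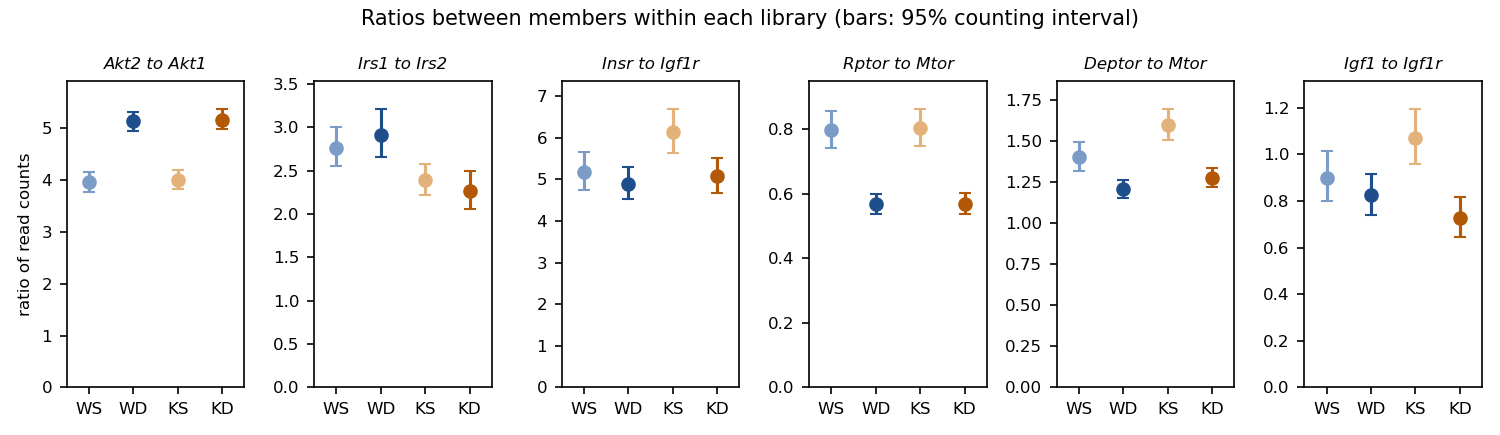
Read count ratios of 2 members within each library (vertical axes, linear from 0) with 95% counting intervals. The Akt2 to Akt1 ratio is higher, and the Rptor to Mtor ratio lower, in both denervated libraries than in both sham libraries.

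The sham libraries were compared to ask how the genotypes differed in muscle that had kept its nerve. Of the 10 members, 9 were lower in KS than in WS, as were 6580 of the 13084 genes tested, and none was 2-fold apart, as were 2.04% of all genes. The share of all genes whose counting interval left out 0 is not given here. Counting intervals left out 0 in 4 members. These were Igf1r (log2 ratio −0.29, −0.46 to −0.13), Irs1 (−0.26, −0.34 to −0.17), Mtor (−0.26, −0.35 to −0.16) and Rptor (−0.24, −0.35 to −0.14). Their sizes exceeded those of 74.9%, 70.5%, 70.3% and 68.6% of all genes, whose median absolute log2 ratio was 0.15. The summed endothelial markers were also lower in KS, at 369.2 against 456.3 CPM. Summed fibroblast and fibro-adipogenic markers were higher in KS (867.0 against 847.2). Those of Schwann cells (60.4 against 62.8) and macrophages (18.1 against 18.2) were nearly level. The part of these cell types in the ratios was not tested. Akt1 and Akt2 lay at −0.00 and 0.01. Scaling by total counts moved the members down together, and Akt2 then turned to −0.07.

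KD vs WD asked the same in denervated muscle. Here 8 of the 10 members were lower in KD, as were 6708 of the 13084 genes tested. None was 2-fold apart (1.55% of all genes were). Again 4 intervals left out 0, with no share over all genes to set beside them. Igf1 differed most, at −0.28 (−0.45 to −0.11), followed by Irs1 at −0.25 (−0.35 to −0.14), larger than in 79.99% and 76.5% of all genes. Deptor was at 0.07 (0.01 to 0.13) and Akt2 at −0.03 (−0.06 to −0.00), larger in size than only 32.5% and 15.9% of all genes. The median absolute log2 ratio of all genes was 0.11 in this comparison. Mtor and Rptor, which were lower in KS than in WS, were both at −0.01 here. Irs1 was the member whose interval lay below 0 in both genotype comparisons.

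The difference between the denervation ratios of the genotypes (KD vs KS minus WD vs WS) could not be tested, as 1 library per group leaves no residual degree of freedom for it. It was 0.24 (0.13 to 0.36) for Mtor, 0.23 (0.09 to 0.37) for Rptor and 0.14 (0.04 to 0.24) for Deptor, the 3 members whose counting interval left out 0. The share of all genes with such an interval is not given here. For all genes the median absolute difference was 0.17. The differences of Mtor, Rptor and Deptor were larger in size than those of 62.6%, 61.0% and 40.8% of all genes. Igf1 was at −0.23 (−0.46 to 0.01), Igf1r at 0.20 (−0.02 to 0.42) and Irs2 at 0.17 (−0.05 to 0.38). Irs1 was at 0.01 (−0.12 to 0.14), Insr at 0.00, Akt1 at −0.04 (−0.15 to 0.07) and Akt2 at −0.05 (−0.10 to 0.01).

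**Figure D3:**
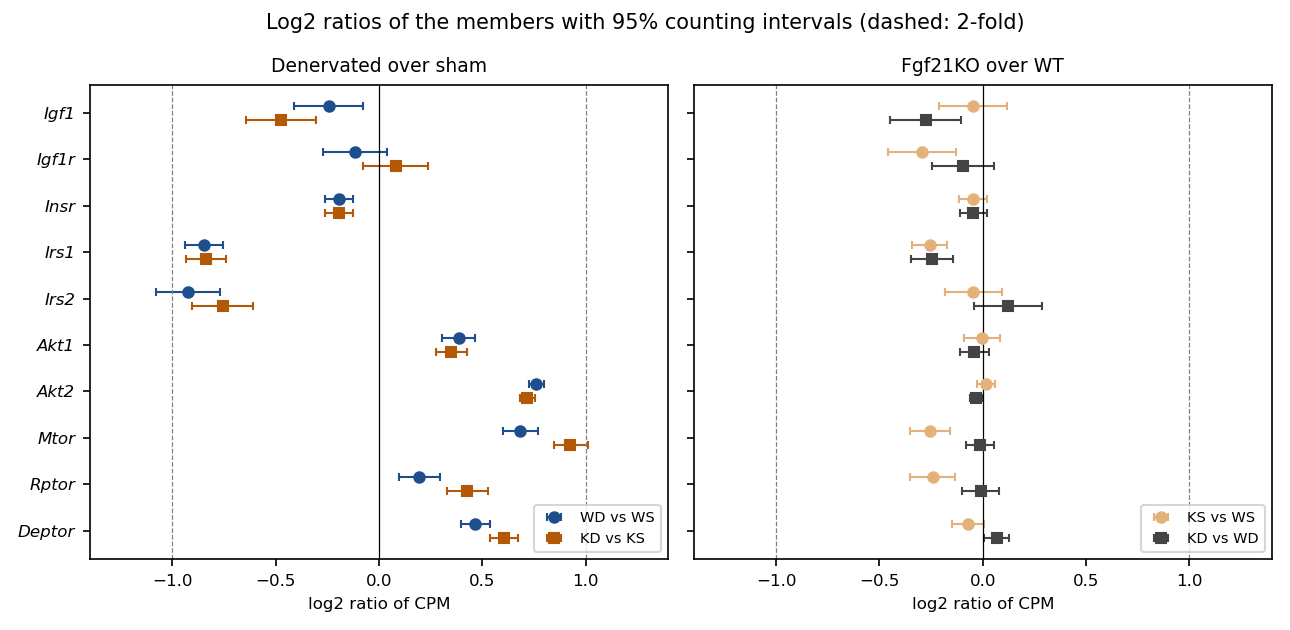
Log2 ratios of the 10 members in the 4 comparisons (horizontal axis), with bars for 95% counting intervals. Denervation ratios run from −0.92 (Irs2 in WT) to 0.93 (Mtor in FGF21KO), while genotype ratios stay between −0.29 and 0.12.

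Genes around the core were taken from 9 lists of 118 genes, of which 112 were measured. By edgeR 29 of these rose with denervation, 43 fell and 40 did not pass, where 26.6% of all genes rose and 27% fell. The same shares of all genes are the background of the counts by list below, which were not tested against them. At least 2-fold higher in WD vs WS were 7 genes and at least 2-fold lower 9, with 7 and 10 in KD vs KS. Among all genes these shares were 7.18% and 7.61% in WD vs WS, and 7.51% and 6.1% in KD vs KS. The same direction in both genotypes was seen for 96 (85.7%) of the 112, beside 82.8% of all genes. The 112 genes had median log2 ratios of −0.08 in WT and −0.05 in FGF21KO. Of the genes named below, 12 were at least 2-fold apart in the same direction in both genotypes, and Mapkap1 and Tti1 were not.

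Among 7 further ligands and binding proteins, 2 rose and 5 fell, with medians of −0.89 in WT and −0.64 in FGF21KO. Igfbp5, an IGF-binding protein of muscle, had 14236 reads in WS against 72172 in WD, and 21735 in KS against 62348 in KD. It was 3.61-fold higher in WT and 2.75-fold higher in FGF21KO (edgeR adjusted p = 7.17e-16). Igfbp3 and Igfals, which carry IGF1 in blood as one complex, both fell. Igfbp3 had log2 ratios of −1.36 and −1.17 (edgeR adjusted p = 3.32e-09). Igfals, with 118 reads in WS against 44 in WD, and 150 in KS against 22 in KD, had −1.86 and −2.71 (edgeR adjusted p = 4.62e-08).

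Of 9 inhibitors of the receptors and IRS proteins, 4 fell and none rose. Of 8 further receptors and adaptors, 3 rose, 3 fell and 2 did not pass. Grb14, one of the adaptors that fell, blocks the insulin receptor kinase and had 565 reads in WS against 380 in WD, and 751 in KS against 372 in KD, with log2 ratios of −1.06 and −1.07 (edgeR adjusted p = 3.90e-09). In the list of 14 PI3-kinase subunits and phosphoinositide phosphatases, 6 rose and 4 fell. Pik3r3, a regulatory subunit, went from 325 reads in WS to 1070 in WD and from 344 in KS to 1047 in KD (ratios 1.22 and 1.54, edgeR adjusted p = 1.00e-11). Pik3cd, a catalytic subunit best known from leukocytes, had 790, 395, 991 and 415 reads in WS, WD, KS and KD and fell (−1.49 and −1.31, edgeR adjusted p = 3.96e-12).

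The list of 7 genes for the kinase of AKT, its phosphatases and the tribbles pseudokinases had 1 that rose and 3 that fell. Trib3, a tribbles protein that binds AKT, rose from 43 to 160 reads in WT and from 54 to 128 in FGF21KO (ratios 1.37 and 1.16, edgeR adjusted p = 5.98e-05). Of 13 AKT substrates, 3 rose and 6 fell. Foxo1, a transcription factor that AKT keeps out of the nucleus, had 523 reads in WS against 1874 in WD, and 710 in KS against 2158 in KD. Its ratios were 1.35 and 1.54 (edgeR adjusted p = 2.98e-14).

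Beside 26.6% of all genes that rose and 27% that fell, no gene among 8 other partners of mTORC1 and mTORC2 rose and 2 fell. The medians of these partners were 0.11 in WT and 0.19 in FGF21KO. Those that fell, chosen for naming after their values were seen, were Mapkap1, a subunit of mTORC2, and Tti1, which helps assemble the complexes. Mapkap1 went from 58.9 to 42.3 CPM in WT and from 54.7 to 38.8 in FGF21KO, and Tti1 from 35.7 to 25.2 and from 33.6 to 26.0. Of 30 genes for amino acid and stress input to mTORC1, 9 rose, 7 fell and 14 did not pass. Sesn3, a stress-induced restraint on mTORC1, rose from 117 reads in WS to 453 in WD and from 130 in KS to 459 in KD (ratios 1.45 and 1.75, edgeR adjusted p = 3.67e-10).

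Among 16 outputs of mTORC1 and PI3-kinase, 5 rose and 9 fell, with medians of −0.32 in WT and −0.30 in FGF21KO. Slc2a4, the insulin-responsive glucose transporter GLUT4, had 767.6 CPM in WS against 344.2 in WD, and 848.1 in KS against 344.7 in KD. It was 2.23-fold lower in WT and 2.46-fold lower in FGF21KO (edgeR adjusted p = 2.00e-14). Eif4ebp2, a repressor of translation that mTORC1 inactivates, fell with ratios of −1.12 and −1.06 (edgeR adjusted p = 1.37e-13). Tfeb, a lysosomal transcription factor that mTORC1 holds in the cytoplasm, fell with −1.06 and −1.09 (edgeR adjusted p = 1.84e-12). Akt2 thus rose while Slc2a4, further along the same insulin response, fell in both genotypes.

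**Figure D4:**
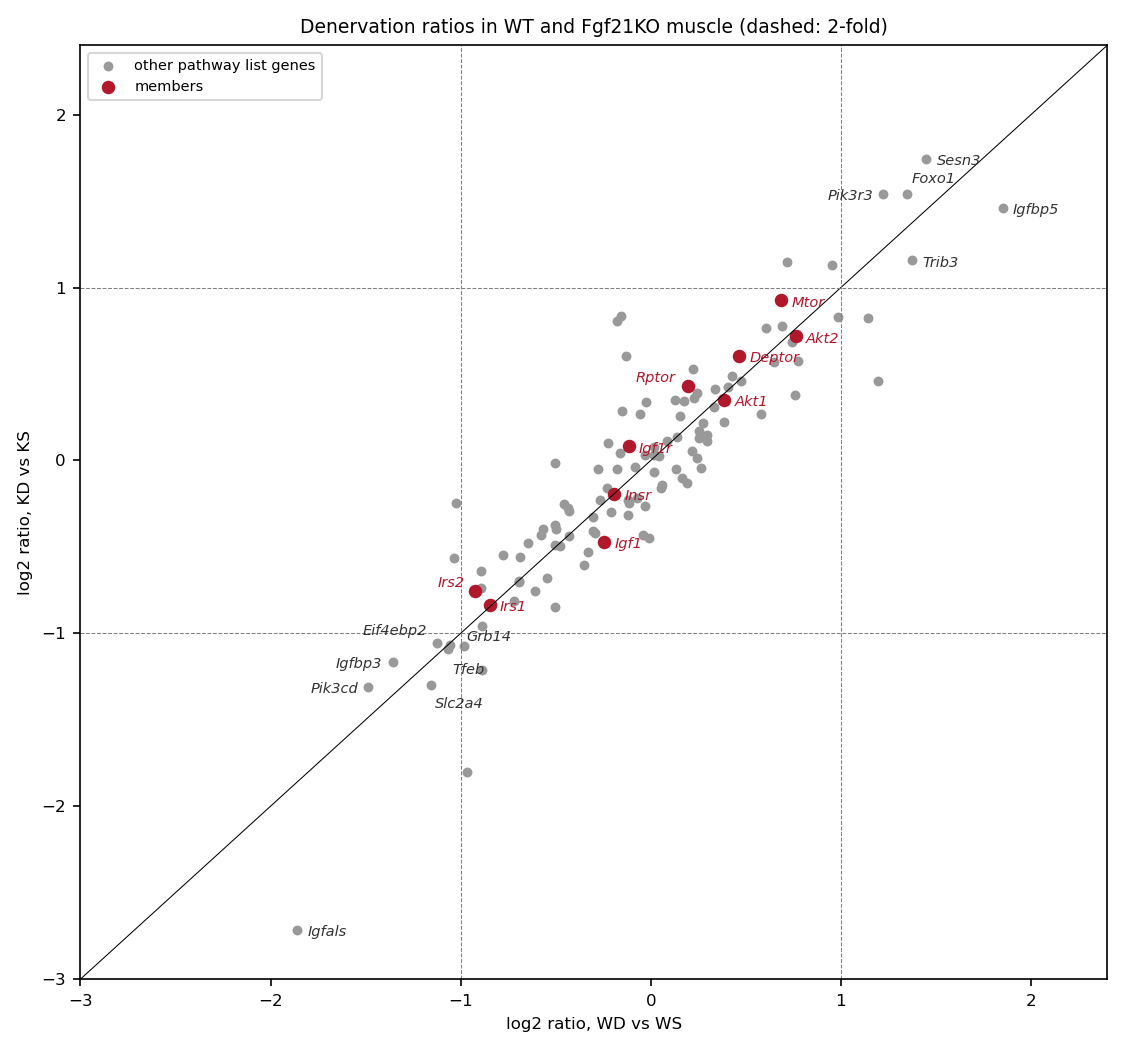
Log2 ratio in WD vs WS (horizontal axis) against KD vs KS (vertical axis) for the 10 members (red) and 112 further pathway genes (grey), with the line of equal ratios and dashed lines at 2-fold. The members lie near the diagonal and inside the dashed lines, with Irs1 and Irs2 at the lower left and Akt2 and Mtor at the upper right.

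Irs1 had the largest mean denervation ratio in size of the 10 members. Among 11316 genes whose mean count reached 50, the genes nearest to it in log2 CPM over the 4 libraries, each centred on its own mean, were Fnbp1l (Euclidean distance 0.016), Ace (0.041) and Sox7 (0.041). Fnbp1l had log2 ratios of −0.87 and −0.84, Ace −0.81 and −0.83, and Sox7 −0.85 and −0.85.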

How the data were processed

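RNA of 4 TA muscles was pooled per group, giving 1 stranded mRNA library in each of 4 groups, assigned by the labels. The deposited main table holds unnormalized read counts by gene symbol, with library sums of 25249879 to 34141303. A second deposited table, named for FPKM, holds log2 values. In each library these were counts multiplied by a constant, with 1 added before the log, so no gene length entered them, and they served only as an alternative. The submitters' processing notes name FastQC and GRCm39, while the aligner and the counter are not given in the sources used here.

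Genes whose mean count reached 10 (13084) were kept, with TMM scaling from edgeR 4.0.16 (R 4.3.3). Log2 ratios used a prior count of 2, with exact conditional binomial intervals (95%, counting error only, since reads are not independent molecules). Denervation was tested by the edgeR quasi-likelihood test with genotype as a covariate and Benjamini-Hochberg adjustment, called at an adjusted p below 0.05. Its single residual degree of freedom is that of the interaction. The common biological coefficient of variation was 0.068. No group had replicate pools, so the p-values rest on that interaction and not on a measured spread between pools or animals. The same holds for each SE given beside an edgeR log2 fold change. It is the absolute log2 fold change divided by the square root of the F statistic of the test.

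The alternatives were other scalings, filters and prior counts, DESeq2 1.42.0, surgery alone, each library left out, and a fold threshold. Lengths and gene positions came from GENCODE M21 (GRCm38), with 11688 genes matched, and promoters from RefSeq (GRCm38.p6). Named were all members, list genes at least 2-fold apart in the same direction in both genotypes, list genes at least 2-fold apart by genotype at a mean count of 50 or more (there were none), and the 3 genes nearest to the leading member. Mapkap1 and Tti1 were named outside this rule, after their values were seen. A gene of these lists is not reported here. The members and lists were chosen with earlier results of these data known. Scripts were tested on simulated data.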

Additional observations from a re-analysis of the deposited data

Results flagged for a closer look

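Igf1r, the IGF1 receptor gene, was the member whose ratios had opposite directions in the genotypes, at −0.12 after denervation of WT and 0.08 after denervation of FGF21KO muscle. The difference was 0.20 on the log2 scale (95% counting interval −0.02 to 0.42). It was not tested, and both single ratios had counting intervals that included 0.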

How the results depend on the processing

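Irs1, Irs2, Akt1, Akt2, Mtor and Deptor kept their edgeR or DESeq2 calls under all 11 alternatives that kept the adjusted p alone as the criterion. Adding an absolute log2 fold change of at least 1 left 0 members higher, 0 members lower and 895 higher and 816 lower genes overall. Under scaling by total counts alone, which shifts the median log2 ratio of all genes to 0.29 for WT and 0.36 for FGF21KO, 6114 genes were higher and 1674 lower (3476 and 3527 with TMM), 2 members were lower, Igf1r turned to 0.30 and Insr to 0.13, and 1 member in WT and 2 in FGF21KO were at least 2-fold higher. DESeq2 called 2205 genes higher and 2 members lower. A mean count of at least 50 left 68 genes 2-fold apart between the sham libraries (from 267) and 46 between the denervated ones (from 203). The deposited log2 values gave 1188 genes 2-fold apart by denervation in WT (from 1936), 1117 in FGF21KO (from 1780), 29 by genotype in sham and 25 in denervated muscle. With surgery alone and each library left out in turn, where a lone library is assumed to vary like the other group, 4 to 5 members were higher and 2 to 4 lower, and 2540 to 3009 genes were higher and 2668 to 3161 lower overall. The cause of these shifts was not tested, beyond fewer genes or libraries where the alternative removes them. No paired analysis was possible because no label ties single animals or pools together, although the genotype covariate sets each denervated pool against the sham pool of its genotype. Pooling leaves the variation between animals unmeasured. No member had fewer than 503 reads in a library. Counting intervals were widest for Igf1, Igf1r and Irs2, the members with the fewest reads.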
